A study of Homo sapiens with 4 samples.

Results

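Genes annotated as antisense, a class of noncoding genes on the strand opposite to another gene, were examined here in SW620 colorectal cancer cells with and without GAP43 overexpression. The members are the genes annotated as antisense with a mean of at least 1 FPKM (fragments per unit of gene length and of sequencing depth) over the 4 libraries. ZFAS1 and the 3 antisense genes named as small nucleolar RNA hosts (SNHG7, SNHG10 and SNHG12) were left out by rule. This gave 665 members of 3745 antisense genes and 33845 genes in all. Each member was paired with every protein-coding gene whose annotated span overlaps it on the other strand. A partner was found for 540 members, in 611 pairs with 582 protein-coding genes, and the other 125 members overlapped none. In the rule the FPKM values chose the members, so that their level is a description and not a finding.

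Antisense RNAs are commonly spliced little, held at low levels and kept in the nucleus. Some arise at the start of a coding gene, where RNA polymerase II can leave the promoter in both directions, and others start inside an intron or beyond the end of the gene. Some antisense RNAs are known to act on the gene they overlap, for instance in imprinting and in the HOX clusters, and many have no known function.

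SW620 is an established line from a lymph node metastasis of a colorectal carcinoma. GAP43 is a membrane protein of neuronal growth cones and a substrate of protein kinase C. By the labels, one group carries stably transfected Flag-GAP43 plasmids and the other stably transfected control plasmids, both were at passages 12 to 15, and each group has 2 libraries of poly(A) RNA. No source used here says that the libraries came from separate cultures or clones, so the p-values speak only of the scatter among these samples, which may be technical scatter. An exact permutation test of 2 against 2 libraries cannot go below p = 0.333. GAP43 itself was at 4.40 and 4.14 FPKM in the control libraries and at 16.3 and 9.89 FPKM in the GAP43 libraries. The libraries held 17473071 to 21883137 fragments. Of 12 markers of colorectal epithelium, 8 averaged 1 FPKM or more. The sum of the 12 was 1724 to 2422 FPKM in the controls and 1746 to 1812 FPKM in the GAP43 libraries. The summed markers of fibroblasts, leukocytes and endothelium did not pass 9.77 FPKM in a library. GAP43 replicate 2 had the fewest fragments, the most antisense genes above 0 (3005, against 2719 to 2931 in the others) and the largest share of mitochondrial fragments (6.78%, against 3.68% to 4.93%).

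The library preparation described does not mark the strand. Reads from an antisense gene and from an exon of its partner therefore cannot be told apart where both cover the same bases, and values of such pairs are uncertain. The exons of GENCODE release 29 were used to say how much of each member is shared in this way. No exonic base was shared with a partner by 197 members, under 50% by 297 members and 50% or more by 37 members, and 9 members with a partner could not be looked up. For the 197 members without a shared exonic base, unspliced RNA of the partner could still add reads. For 26 members some exonic bases were shared with a gene on the same strand.

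Where an antisense gene and its partner start close together on opposite strands, both promoters lie in the same DNA. RefSeq promoter windows (GRCh38.p14, 250 bases before to 50 bases after the start) were matched for 238 members and 462 partners, and in 34 of the 201 pairs with both windows the windows had bases in common. Windows of 4 such antisense genes are shown, 5′ to 3′ on the strand of the antisense gene, because each holds the start of both genes of a pair whose values are given later. Among such pairs with both genes tested, KMT2E-AS1 and CTD-2020K17.1 are the members that were higher at an unadjusted p under 0.05 in the comparison below. KDM4A-AS1 and TMEM161B-AS1 did not pass that threshold and are among those with the longest common stretch. Capitals mark the bases that also belong to the promoter window of the partner. The windows lie at chr7:105014092-105014391 (minus strand, 163 bases in common with KMT2E), chr17:45221716-45222015 (minus strand, 219 bases in common with FMNL1), chr1:43707292-43707591 (minus strand, 294 bases in common with ST3GAL3) and chr5:88268766-88269065 (plus strand, 270 bases in common with TMEM161B).
KMT2E-AS1: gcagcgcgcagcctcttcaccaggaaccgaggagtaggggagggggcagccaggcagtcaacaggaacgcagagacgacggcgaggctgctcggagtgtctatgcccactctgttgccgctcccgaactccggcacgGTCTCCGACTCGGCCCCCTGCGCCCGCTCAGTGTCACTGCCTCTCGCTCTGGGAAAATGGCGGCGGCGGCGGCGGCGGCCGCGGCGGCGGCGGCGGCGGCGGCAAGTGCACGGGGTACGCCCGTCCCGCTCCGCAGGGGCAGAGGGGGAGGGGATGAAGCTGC
CTD-2020K17.1: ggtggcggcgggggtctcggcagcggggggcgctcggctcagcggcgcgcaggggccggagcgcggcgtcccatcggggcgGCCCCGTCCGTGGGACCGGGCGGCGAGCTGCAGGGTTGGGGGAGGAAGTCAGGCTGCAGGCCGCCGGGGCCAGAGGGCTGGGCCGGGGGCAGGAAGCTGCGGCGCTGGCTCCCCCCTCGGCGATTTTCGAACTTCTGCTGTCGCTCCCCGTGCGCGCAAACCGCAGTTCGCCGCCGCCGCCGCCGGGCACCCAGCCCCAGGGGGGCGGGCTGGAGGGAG
KDM4A-AS1: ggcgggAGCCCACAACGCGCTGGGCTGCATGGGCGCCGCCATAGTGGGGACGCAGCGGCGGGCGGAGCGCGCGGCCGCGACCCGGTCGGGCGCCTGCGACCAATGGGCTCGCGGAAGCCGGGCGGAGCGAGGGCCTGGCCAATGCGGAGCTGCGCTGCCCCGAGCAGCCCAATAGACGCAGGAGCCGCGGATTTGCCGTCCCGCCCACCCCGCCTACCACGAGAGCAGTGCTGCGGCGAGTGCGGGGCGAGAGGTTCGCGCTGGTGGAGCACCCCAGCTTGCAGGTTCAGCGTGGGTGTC
TMEM161B-AS1: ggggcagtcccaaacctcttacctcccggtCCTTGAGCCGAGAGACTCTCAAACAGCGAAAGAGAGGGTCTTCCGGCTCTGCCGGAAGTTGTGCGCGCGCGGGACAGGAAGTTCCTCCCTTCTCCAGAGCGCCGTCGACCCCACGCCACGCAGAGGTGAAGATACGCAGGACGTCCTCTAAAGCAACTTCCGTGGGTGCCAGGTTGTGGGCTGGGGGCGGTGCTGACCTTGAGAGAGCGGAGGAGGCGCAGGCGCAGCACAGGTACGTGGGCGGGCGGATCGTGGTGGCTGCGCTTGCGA

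All 4 windows were rich in G and C, from 64.7% in TMEM161B-AS1 to 79.0% in CTD-2020K17.1, with 27 to 40 CG dinucleotides each. Over all members matched, the median window had 65.5% G and C, against 67.0% in partners and 58.7% in the 35116 RefSeq windows of all genes. A TATA box (TATAAA on either strand) was found in 4.20% of the members' windows, in 5.41% of the partners' windows and in 11.5% of all windows. The GC box (GGGCGG on either strand) was found in 59.2%, 66.2% and 45.0%, and the CCAAT box (CCAAT on either strand) in 34.0%, 36.1% and 34.6%. Such a match is a description of these letters and not a binding site. KDM4A-AS1 held 3 matches of the GC box and 3 of the CCAAT box, CTD-2020K17.1 and TMEM161B-AS1 held 3 of the GC box, and KMT2E-AS1 held none of the 3 motifs.

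Most members were low. Their median level was 1.99 FPKM, against 7.90 FPKM for the partners and 7.82 FPKM for the protein-coding genes that averaged 1 FPKM or more. Below 2 FPKM were 334 members, below 5 FPKM 583 and below 10 FPKM 642, and 23 reached 10 FPKM. The median member had an exonic length of 795 bases, against 4962.5 bases for protein-coding genes, and rested on 40 fragments in a library. Fewer than 100 fragments over the 4 libraries were behind 230 members, and the fewest were 15. A value of at least 1 FPKM in every library was reached by 445 members, and 1 member, RP11-98F14.11, was listed at 0 in a library (GAP43 replicate 1). Just inside the threshold lay HM13-AS1, RP11-752G15.8 and RP11-156K23.3 with means between 1 and 1.002 FPKM, and just outside it RP11-650L12.2, FOXD2-AS1 and RP11-809O17.1 with 0.993 to 0.997 FPKM. The members lay on 23 chromosomes, with 66 on chromosome 1 and 58 on chromosome 17.

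The 10 members with the highest mean level were led by HOXB-AS3, an antisense gene of the HOXB cluster described with the other HOX genes later. The next were ENSG00000262903 inside CTNS, the lysosomal cystine exporter, CTD-3184A7.4 and RP11-613M10.6, which overlapped no coding gene, and FGD5-AS1. ENSG00000262903 was at 24.4 and 16.9 FPKM in the controls and at 17.3 and 29.4 FPKM in the GAP43 libraries, so the groups overlapped. FGD5-AS1 was at 21.7 and 19.3 FPKM in the controls and at 22.2 and 17.3 FPKM in the GAP43 libraries. RP11-284F21.10, CTD-2510F5.4, AC007277.3, CTB-131K11.1 and INAFM2 completed the 10. AC007277.3, tail to tail with the unconventional myosin gene MYO3B, was at 13.4 and 10.4 FPKM in the controls and at 14.5 and 25.2 FPKM in the GAP43 libraries (log2 fold change 0.65, SE 0.28). Of these 10, HOXB-AS3 alone passed an unadjusted p under 0.05.

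The comparison asks which antisense genes differed with GAP43 overexpression. At an unadjusted p under 0.05, 55 of the 665 members were higher and 6 lower in the GAP43 libraries (limma on log2(FPKM + 1), with all 13507 genes of at least 1 FPKM in the fit). That is 8.27% and 0.902% of the members, where 3.05% of all genes tested were higher and 2.84% lower by the same test. After Benjamini-Hochberg adjustment over all genes, 0 members and 0.0% of all genes passed 0.05 with limma, and voom on recovered fragments also gave 0. The smallest adjusted p of a member was 0.692. With no filter on the genes fitted, 4.06% of the members were higher, against 4.21% of all 33845 genes and 1.97% of the 13507 genes of at least 1 FPKM, so the share of members then lay near that of all genes fitted. With voom it was 4.51% of the members against 2.93% of all genes. Genes with an unadjusted p under 0.05 are termed called below, a description of rank rather than a passed test, and genes given with a standard error (SE) and without that word were not called. In 227 members (34.1%) both GAP43 libraries lay above both controls, against 17.1% of all genes, and in 34 members (5.11%) both lay below, against 24.1%. The median log2 fold change of the members was 0.21, with the quartiles at 0.03 and 0.41, and that of all genes was -0.04.

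A mean over all libraries lets in genes that pass through 1 group only. The control mean was below 1 FPKM for 92 members and the GAP43 mean for 12. Among the 561 members with both group means at 1 FPKM or more, 45 were higher and 4 lower, with a median log2 fold change of 0.18. These were 8.02% and 0.713%, against 3.05% and 2.84% of all genes tested, to which this restriction was not applied.

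The size of the difference was not the same in the 2 GAP43 libraries. Against the mean of the controls, the median member lay at 0.07 in GAP43 replicate 1 and at 0.37 in GAP43 replicate 2 on the log2 scale, while the controls themselves lay at 0.04 and -0.04. GAP43 replicate 2 was the highest library for 419 members, GAP43 replicate 1 for 104, control replicate 1 for 73 and control replicate 2 for 69. Members took 0.302% and 0.261% of all fragments in the controls, 0.317% in GAP43 replicate 1 and 0.467% in GAP43 replicate 2. Without GAP43 replicate 2, 28 members were higher and 17 lower with a median of 0.07. These were 4.21% and 2.56% of the members, where 2.41% of all genes were higher and 2.83% lower, so the lower share was near that of all genes. Without GAP43 replicate 1, 188 members were higher and 14 lower (28.3% and 2.11%, against 11.6% and 18.6% of all genes) with a median of 0.37. Without control replicate 2, 27 members were higher and 1 lower (4.06% and 0.15%, against 2.0% and 0.57% of all genes). The part that depth and mitochondrial share of GAP43 replicate 2 have in these values was not tested.

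**Figure D1:**
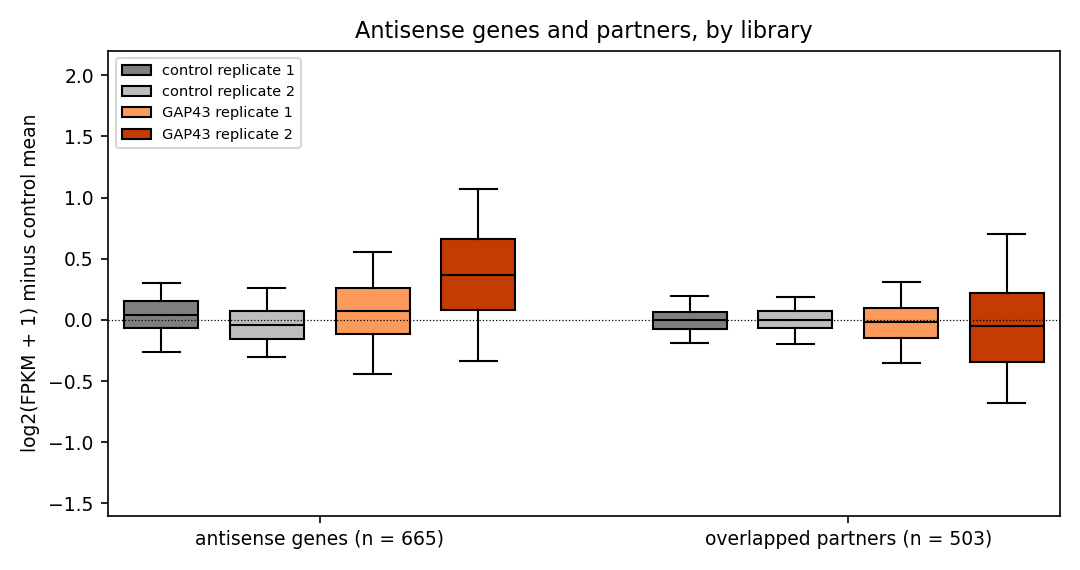
Box plots of log2(FPKM + 1) minus the mean of the 2 controls, for the 665 antisense genes and the 503 tested partners in each of the 4 libraries (line, median; box, quartiles; whiskers, percentiles 5 and 95). The median antisense gene lies at 0.07 in GAP43 replicate 1 and at 0.37 in GAP43 replicate 2, while the median partner lies near 0 in every library.

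The median member lay above the median protein-coding gene at each level. The median log2 fold change was 0.20 for the 334 members at 1 to 2 FPKM, 0.24 for the 249 at 2 to 5 FPKM, 0.21 for the 59 at 5 to 10 FPKM and 0.09 for the 23 at 10 FPKM or more. Protein-coding genes in the same ranges had 0.08, 0.01, -0.06 and -0.20. Other noncoding classes also lay above 0, with a median of 0.21 over 541 lincRNA (long intergenic noncoding RNA) genes, 0.27 over 145 genes inside introns of the same strand and 0.30 over 87 genes whose class awaits experimental proof (TEC). A median of this size was thus not particular to antisense genes. The percentage higher at an unadjusted p under 0.05 was 11.3% for lincRNA genes and 8.97% for genes inside introns of the same strand.

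**Figure D2:**
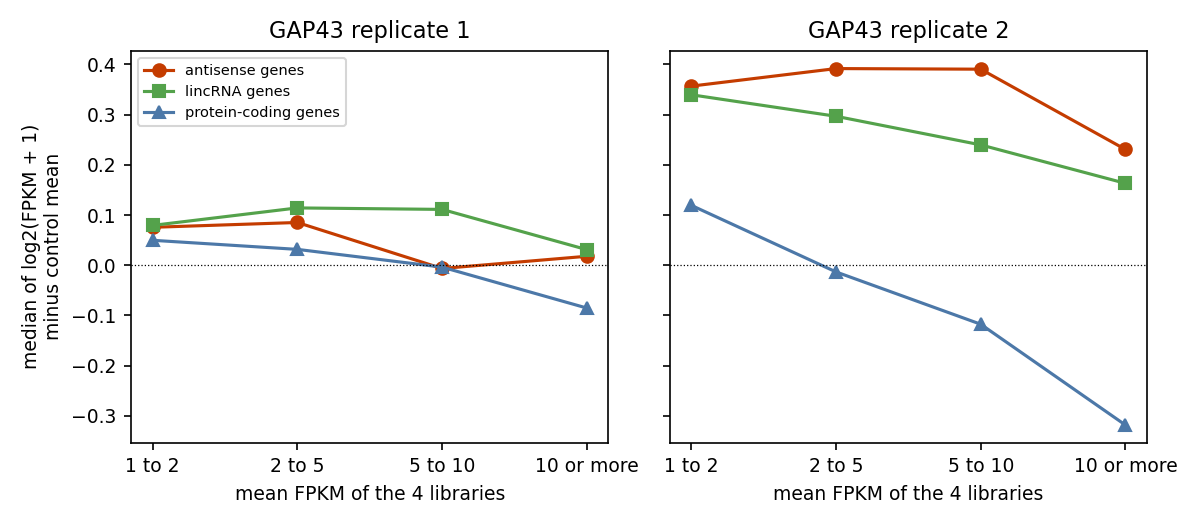
Median of log2(FPKM + 1) minus the control mean in GAP43 replicate 1 (left) and GAP43 replicate 2 (right), by mean FPKM of the 4 libraries, for antisense, lincRNA and protein-coding genes. In GAP43 replicate 2 the antisense and lincRNA genes lie above 0 at each level, and the protein-coding genes fall below 0 as the level rises.

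The 12 higher members named here are those with the smallest unadjusted p and no overlap between the groups. RP11-874J12.4 (chr18:3653410-3656282, plus strand) came first. It was at 1.99 and 2.13 FPKM in the controls and at 4.40 and 4.86 FPKM in the GAP43 libraries. Its log2 fold change was 0.88 (SE 0.17, adjusted p = 0.692 by limma, called). It lies inside DLGAP1, which encodes a scaffold of the postsynaptic density, and DLGAP1 itself was below 0.05 FPKM in every library. Only 2.06% of its exonic bases are shared with DLGAP1.

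AC008060.5 (chr7:155510283-155518623) was at 1.42 and 1.33 FPKM in the controls and at 2.91 and 3.07 FPKM in the GAP43 libraries (log2 fold change 0.75, SE 0.18, called). Its partner CNPY1, known from zebrafish as a regulator of FGF signalling, was at 7.36 and 8.77 FPKM in the controls and at 9.35 and 8.31 FPKM in the GAP43 libraries, and these groups overlapped. RP11-403P17.6 inside CKLF, which encodes a chemokine-like factor, was at 2.11 and 1.35 FPKM in the controls and at 3.44 and 5.10 FPKM in the GAP43 libraries (log2 fold change 0.94, SE 0.24, called). CKLF was at 0.892 to 1.43 FPKM with the groups interleaved. RP11-506M12.1 was at 0.663 and 0.452 FPKM in the controls and at 2.30 and 1.61 FPKM in the GAP43 libraries (log2 fold change 0.92, SE 0.25, called), on 60 fragments in all. CNPY4, which lies inside it, was at 3.81 to 5.64 FPKM without separation of the groups.

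The other 8 had log2 fold changes of 0.61 to 0.92. They were RP11-713M15.2 at SNTB1, a syntrophin of the dystrophin complex, RP11-649G15.2 inside OXR1, an oxidation resistance gene, ENSG00000262372 inside KANSL1, a subunit of a histone acetyltransferase complex, RP11-285F7.2 at EPHX1, the microsomal epoxide hydrolase, RP11-535C21.3 inside ANP32B, an acidic nuclear phosphoprotein, RP4-584D14.6 inside the zinc finger gene ZNF775, RP11-104N10.1 inside SPG7, a subunit of a mitochondrial protease and RP11-471B22.2. None of the partners named here passed an unadjusted p under 0.05. In OXR1 and ZNF775 both GAP43 libraries lay above both controls, and in ANP32B both lay below them. ANP32B was at 156 and 163 FPKM in the controls and at 136 and 96.8 FPKM in the GAP43 libraries (log2 fold change -0.47, SE 0.25). RP11-535C21.3 was at 0.707 and 0.772 FPKM in the controls and at 1.69 and 2.42 FPKM in the GAP43 libraries. It rested on 46 fragments in all and passed the filter only through the GAP43 group. RP11-471B22.2 was at 1.11 and 2.42 FPKM in the controls and at 3.48 and 4.78 FPKM in the GAP43 libraries. All exonic bases of ENSG00000262372 lie in exons of KANSL1 and its value rests on 40 fragments, so reads of the 2 genes cannot be separated there.

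The 6 members that were lower included 4 without a partner. RP11-132A1.4 (chr7:101308346-101310985, plus strand), which overlaps no coding gene, was at 10.1 and 9.84 FPKM in the controls and at 5.34 and 6.18 FPKM in the GAP43 libraries. Its log2 fold change was -0.70 (SE 0.16, called). EXOC3-AS1 was at 2.93 and 3.21 FPKM in the controls and at 1.91 and 1.94 FPKM in the GAP43 libraries (log2 fold change -0.48, SE 0.18, called). Its span overlaps that of EXOC3, an exocyst subunit, by 3 bases at their starts, and EXOC3 stayed between 10.8 and 11.3 FPKM in the 4 libraries. RP11-432J22.2, CELSR3-AS1, LINC01063 and RP4-545L17.11 had log2 fold changes of -0.77 to -0.51. RP4-545L17.11, inside the proteasome inhibitor gene PSMF1, rested on 19 fragments in all.

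**Figure D3:**
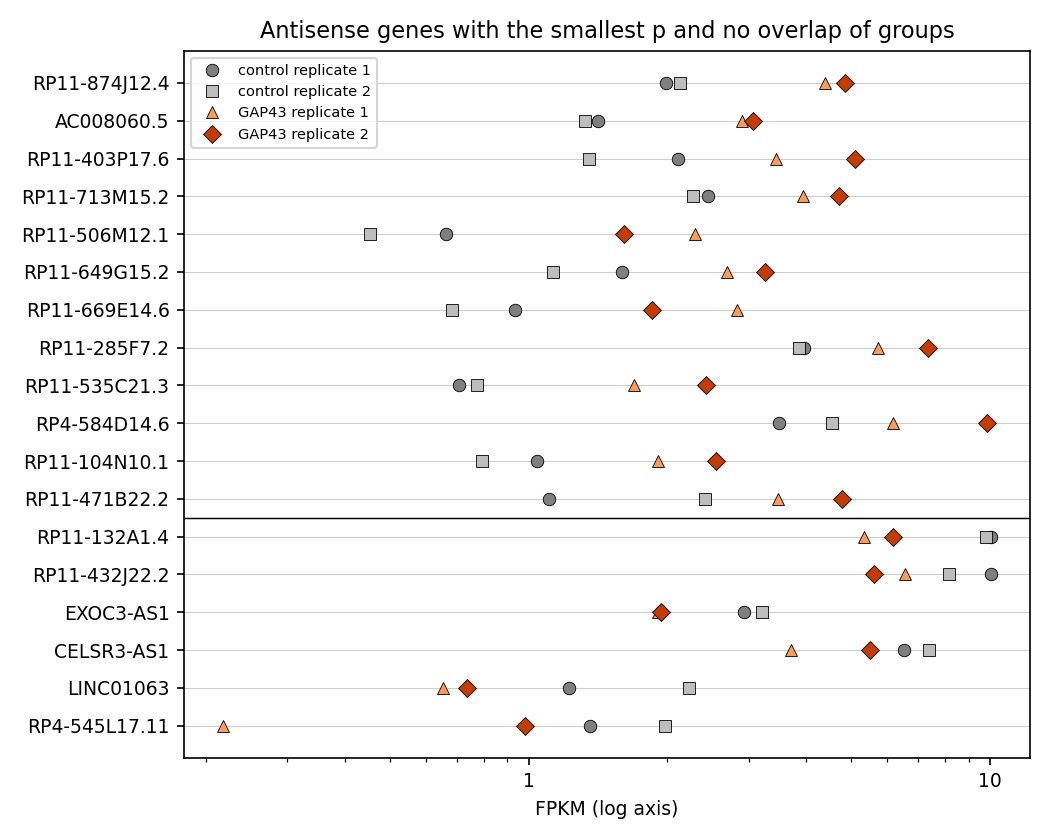
FPKM (log axis) of 12 antisense genes that were higher (above the line) and 6 that were lower (below it) in the GAP43 libraries, with 1 symbol for each of the 4 libraries. These genes were chosen for a small p and groups that do not overlap, so the separation of the symbols is part of the choice; RP11-874J12.4 and RP11-132A1.4 stand at the head of the 2 sets.

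Of the 20 members named in this text by rule that passed an unadjusted p under 0.05, 5 stayed below it when each library was left out in turn: RP11-874J12.4, RP11-403P17.6, RP11-132A1.4, AC008060.5 and RP11-506M12.1. With voom on recovered fragments AC008060.5 lost the call, and the others of these 5 kept it. Of the 55 higher members, 10 had a control mean under 1 FPKM and passed the filter only through the GAP43 group. Among them were RP11-506M12.1 (control mean 0.558 FPKM), RP11-535C21.3 (0.740), ENSG00000262372 (0.808), CTB-186G2.4 (0.917) and RP11-104N10.1 (0.918). Of the lower members, LINC01063 and RP4-545L17.11 passed only through the controls (GAP43 means of 0.694 and 0.599 FPKM). Each fit with a library left out leaves 1 group with a single library, which is assumed to vary like the other group. Without GAP43 replicate 2 the call was lost by HOXB-AS3, RP11-104N10.1, RP11-432J22.2, RP11-471B22.2, LINC01063 and CTB-186G2.4. Without GAP43 replicate 1 it was lost by 5 members, CELSR3-AS1, CTB-186G2.4, EXOC3-AS1, LINC01063 and RP4-545L17.11. Without control replicate 1 it was lost by 9 of the 20 and without control replicate 2 by 12. All 20 kept their direction in each of these fits.

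The partners were examined next, to see whether the coding genes moved with their antisense genes. Of the 582 partners, 503 reached 1 FPKM and were tested. By the same criterion 10 were higher and 13 lower (1.99% and 2.58%), where 1.23% of all protein-coding genes were higher and 2.92% lower. Both GAP43 libraries lay above both controls in 80 partners (15.9%, against 13.9% of protein-coding genes) and below them in 121 (24.1%, against 28.1%). The median log2 fold change was -0.04 for partners and -0.08 for all protein-coding genes. With each library scaled to an equal FPKM sum, which moved the median of all genes from -0.04 to 0.07, 16 partners were higher and 4 lower (3.18% and 0.795%, against 2.38% and 1.63% of protein-coding genes) and their median was 0.07. With median-ratio scaling 4 were higher and 15 lower (0.795% and 2.98%, against 0.945% and 3.55%). Without GAP43 replicate 1, 59 partners were higher and 95 lower (11.7% and 18.9%, against 7.23% and 21.7% of protein-coding genes and 11.6% and 18.6% of all genes). Without GAP43 replicate 2, 3 were higher and 9 lower (0.596% and 1.79%, against 1.26% and 2.34% of protein-coding genes), and without control replicate 2, 2 were higher and 0 lower (0.398% and 0%, against 0.571% and 0.271%).

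Pair by pair, the antisense gene had the larger log2 fold change in 409 of the 528 pairs with both genes tested (77.5%). The antisense gene was above 0 and the partner below 0 in 224 pairs, both were above 0 in 188, both below 0 in 79, and the partner alone above 0 in 37. Of all members 77.0% lay above 0, and of all tested partners 41.9%. With shares so unlike, these counts need not reflect a link between the genes of a pair. Across the 528 pairs the log2 fold changes of both genes had a Pearson r of 0.25 and a Spearman rho of 0.22. Both values of a pair come from the same 4 libraries and may share reads, so this is a description. In the median pair the antisense gene stood at 0.206 and 0.179 times the FPKM of its partner in the controls and at 0.217 and 0.306 times in the GAP43 libraries, so GAP43 replicate 2 was the highest and GAP43 replicate 1 near control replicate 1. Without GAP43 replicate 2 the antisense gene had the larger log2 fold change in 335 pairs.

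Of the 46 pairs whose antisense gene was higher at an unadjusted p under 0.05, 3 had a partner that was higher as well and 0 had a partner that was lower. Of all tested partners 1.99% were higher and 2.58% lower. The 46 pairs held 42 antisense genes, and HOXB-AS3 was in 4 of them. The median partner log2 fold change was 0.14, against -0.03 over the 528 pairs. Both genes lay above 0 in 32 pairs and the antisense gene alone in 14. The 3 pairs with both genes called, singled out after their values were seen, were HOXB-AS3 with HOXB5, RP11-345P4.7 with SLC35E2B, and RP5-872K7.7 with KIZ, which encodes a centrosomal protein. RP11-345P4.7 was at 2.23 and 2.00 FPKM in the controls and at 3.38 and 3.86 FPKM in the GAP43 libraries, and SLC35E2B, named for the nucleotide sugar transporter family, was at 6.73 and 6.57 FPKM in the controls and at 8.82 and 9.13 FPKM in the GAP43 libraries. They share no exonic base. RP5-872K7.7 was at 1.71 and 2.33 FPKM in the controls and at 2.90 and 6.28 FPKM in the GAP43 libraries, and KIZ at 14.6 and 16.6 FPKM in the controls and at 19.3 and 32.1 FPKM in the GAP43 libraries. In these last genes GAP43 replicate 2 was far above GAP43 replicate 1.

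The 3 partners with the smallest p, also singled out after their values were seen, were LAD1, TMEM44 and PROX1, and none of their antisense genes passed an unadjusted p under 0.05. LAD1, an anchoring filament protein of basement membranes, was at 52.6 and 59.7 FPKM in the controls and at 37.7 and 30.4 FPKM in the GAP43 libraries (log2 fold change -0.71, SE 0.21, called), and its antisense gene RP11-27G14.4 had a log2 fold change of -0.30 (SE 0.17). TMEM44 had a log2 fold change of 0.64 (SE 0.19, called), and its antisense genes AC046143.3 and TMEM44-AS1 had -0.03 and 0.28. PROX1, a homeobox transcription factor, was at 19.4 and 15.5 FPKM in the controls and at 25.3 and 35.3 FPKM in the GAP43 libraries (log2 fold change 0.75, SE 0.23, called), and RP11-478J18.2 inside it had 0.45 (SE 0.32).

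**Figure D4:**
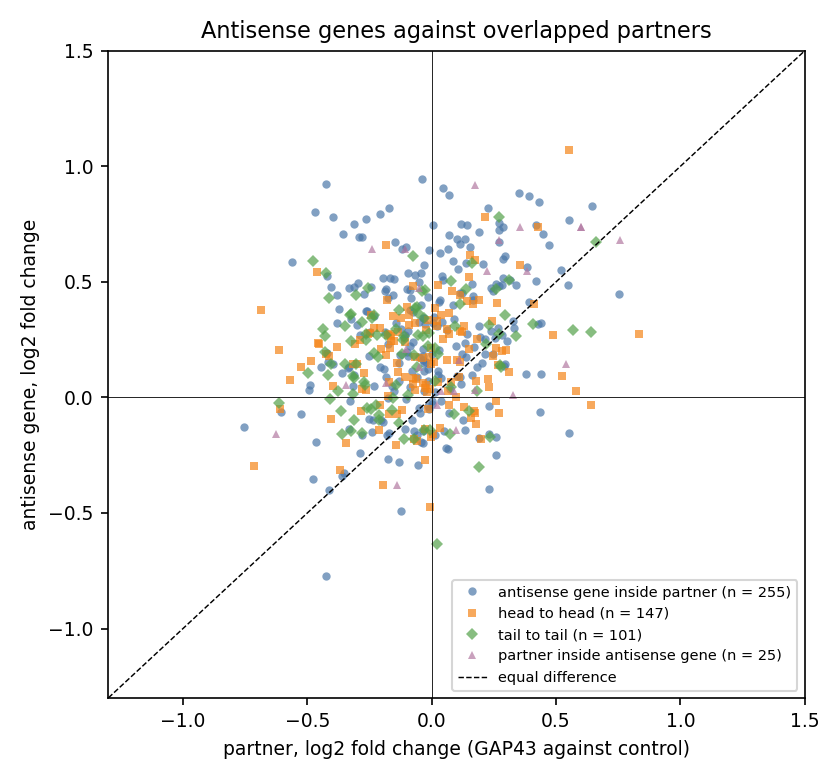
Log2 fold change (GAP43 against control) of the antisense gene against that of its protein-coding partner, for 528 pairs, by how the genes overlap; the dashed line marks equal differences. The antisense gene lies above the line in 409 pairs, and the points form 1 wide cloud (Pearson r 0.25).

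The rule asked only that the spans overlap on opposite strands. The kind of overlap, taken from the same positions, was examined next. The antisense gene lay inside the partner in 285 pairs, the genes overlapped head to head, by their starts, in 160 and tail to tail, by their ends, in 123, and the partner lay inside the antisense gene in 43. Of the 282 members inside a partner, 34 were higher at an unadjusted p under 0.05 (12.1%, with 3.05% over all genes), and the median log2 fold change was 0.25. Of the 159 head-to-head members 7 were higher (4.40%, median 0.17), and of the 121 tail-to-tail members 3 (2.48%, median 0.22). Of the 30 members that hold a partner 4 were higher (13.3%, median 0.07). No difference between these groups was tested.

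The members were also grouped by where their exons lie. Of the 314 members with 50% or more of their exonic bases in introns of a partner, 36 were higher and 1 lower (11.5% and 0.318%, median 0.26), and of the other 226 members with a partner 10 were higher and 1 lower (4.42% and 0.442%, median 0.17). By exon sharing, 28 of the 197 members with no shared exonic base were higher (14.2%), 17 of the 297 with under 50% shared (5.72%) and 1 of the 37 with 50% or more shared (2.70%), while the medians of these groups lay close together at 0.22, 0.20 and 0.18. The 125 members without a partner had 9 higher and 4 lower and a median of 0.21. These were 7.2% and 3.2%, against 3.05% and 2.84% of all genes, so the lower share was near that of all genes. An opposite coding start within 1000 bases was found for 220 members, of which 8 were higher and 3 lower (3.64% and 1.36%, median 0.17), against 47 higher and 3 lower of the other 445 (10.6% and 0.674%, median 0.25).

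In the 31 tested pairs with shared promoter windows, 2 antisense genes and 0 partners were higher at an unadjusted p under 0.05, and 6.45% is near the 8.27% of all members. KMT2E-AS1 was at 3.15 and 3.52 FPKM in the controls and at 4.44 and 7.10 FPKM in the GAP43 libraries (log2 fold change 0.62, SE 0.23, called). KMT2E, a chromatin regulator with a SET domain, was at 4.10 and 5.30 FPKM in the controls and at 5.35 and 5.28 FPKM in the GAP43 libraries (log2 fold change 0.16, SE 0.18). CTD-2020K17.1 was at 4.64 and 4.34 FPKM in the controls and at 5.71 and 7.81 FPKM in the GAP43 libraries (log2 fold change 0.49, SE 0.19, called), and FMNL1, a formin that builds actin filaments, was at 6.99 to 8.10 FPKM without separation (log2 fold change 0.02). KDM4A-AS1 and the sialyltransferase gene ST3GAL3 had log2 fold changes of 0.39 (SE 0.28) and -0.10, and TMEM161B-AS1 and TMEM161B had 0.39 (SE 0.23) and 0.01. The difference between the genes of a pair was not tested.

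The HOX clusters code for homeodomain transcription factors that set position along the body axis and hold several antisense genes, of which 9 were members. In 5 of these 9 (HOXB-AS3, HOXB-AS4, HOTAIRM1, HOXA-AS2 and HOXC13-AS) both GAP43 libraries lay above both controls, as they did in 34.1% of all members and 17.1% of all genes, and with 9 genes the share says little beyond that of the members. HOXB-AS3 (chr17:48549630-48606414, plus strand) was at 19.0 and 15.3 FPKM in the controls and at 22.9 and 36.8 FPKM in the GAP43 libraries. Its log2 fold change was 0.74 (SE 0.26, called). In its 4 partners both GAP43 libraries lay above both controls as well. HOXB5 was at 17.6 and 11.7 FPKM in the controls and at 20.2 and 24.6 FPKM in the GAP43 libraries (log2 fold change 0.60, SE 0.24, called), and HOXB6 at 19.6 and 14.6 FPKM in the controls and at 21.3 and 32.2 FPKM in the GAP43 libraries (0.60, SE 0.26). HOXB3 and HOXB4 had log2 fold changes of 0.43 and 0.35 (SE 0.24 and 0.18). Exons of these partners cover 30.1% of the exonic bases of HOXB-AS3, so part of its reads cannot be told apart from theirs.

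HOTAIRM1, a noncoding gene of the HOXA cluster, had the largest fold change of these genes and the largest spread. It was at 1.58 and 1.14 FPKM in the controls, at 1.73 FPKM in GAP43 replicate 1 and at 7.95 FPKM in GAP43 replicate 2 (log2 fold change 1.07, SE 0.52). HOXA-AS2 was at 2.06 and 1.88 FPKM in the controls and at 2.11 and 4.55 FPKM in the GAP43 libraries (log2 fold change 0.48, SE 0.29), and HOXA3, in which it lies, had a log2 fold change of 0.34. In HOXA10-AS, HOXB-AS2 and HOXC-AS1 GAP43 replicate 2 lay above both controls and GAP43 replicate 1 did not. For HOXA10-AS 62.3% of the exonic bases lie in exons of HOXA9 or HOXA10.

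HOTAIR, a noncoding gene of the HOXC cluster known for binding chromatin regulators, was at 3.48 and 3.003 FPKM in the controls and at 3.52 and 2.80 FPKM in the GAP43 libraries (log2 fold change -0.03). Its partner HOXC11 had a log2 fold change of 0.07. HOXC13-AS was at 1.38 and 1.25 FPKM in the controls and at 1.64 and 2.00 FPKM in the GAP43 libraries (log2 fold change 0.28, SE 0.21), with HOXC13 at -0.14. Over the coding genes of the 4 clusters, 25 of 39 were tested, with 5 higher and 1 lower by the same criterion (where 1.23% of all protein-coding genes were higher and 2.92% lower) and a median of 0.21. Among the higher ones were HOXA5, HOXA6, HOXB5 and HOXC6, and the lower one was HOXD9 at 7.45 and 6.34 FPKM in the controls and 4.63 and 2.36 FPKM in the GAP43 libraries.

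**Figure D5:**
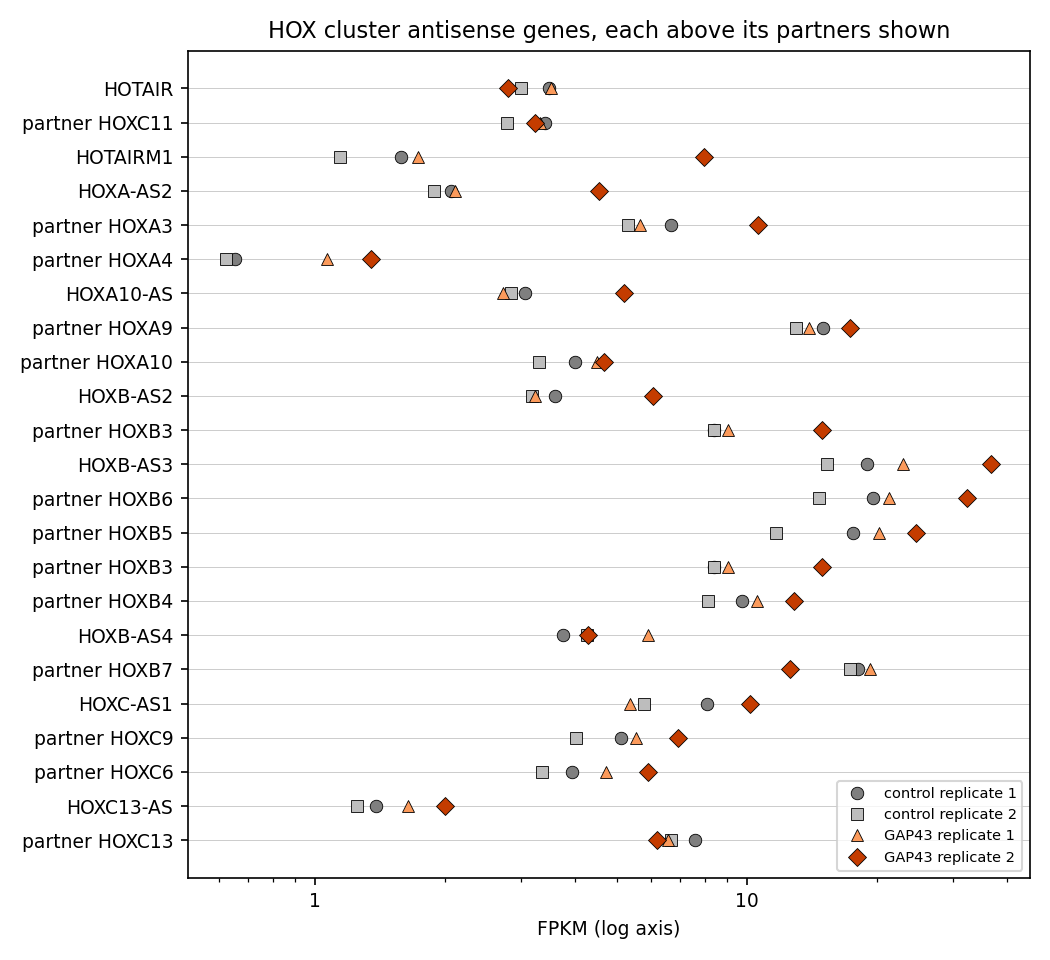
FPKM (log axis) of the 9 HOX cluster antisense genes, each listed above those of its protein-coding partners that are reported here, with 1 symbol for each of the 4 libraries. GAP43 replicate 2 is the highest library for HOTAIRM1 (7.95 FPKM), HOXB-AS3 (36.8 FPKM) and its partner HOXB6 (32.2 FPKM), while HOTAIR and HOXC11 show no separation.

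The levels of a member and its partner differed widely. In 63 of the 528 pairs the antisense gene had the higher mean FPKM. The largest ratio was that of CTB-131K11.1, at 13.1 times the level of FBXL20, an F-box protein of ubiquitin ligases. It was at 16.5 and 15.3 FPKM in the controls and at 16.1 and 12.0 FPKM in the GAP43 libraries, and FBXL20 at 0.966 to 1.39 FPKM. THAP9-AS1 stood at 7.83 times THAP9, a gene related to transposases, and RP11-284F21.10 and RP11-284F21.7 at 6.73 and 3.14 times BCAN, which encodes a proteoglycan of the brain. FGD5-AS1 stood at 3.31 times the nuclear receptor gene NR2C2 and 2.28 times the exchange factor gene FGD5. None of these 5 antisense genes passed an unadjusted p under 0.05.

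At the other end were antisense genes of abundant coding genes. RP13-766D20.2 stood at 0.00125 times ACTG1, which encodes gamma-actin, RP11-513M16.8 at 0.00194 times the ribosomal protein gene RPS6, CTB-186G2.4 at 0.00508 times ACTN4, an alpha-actinin, RP4-536B24.2 at 0.00835 times the amino acid transporter gene SLC7A5, and RP11-1148L6.9 at 0.00949 times RBM3, a cold-inducible RNA-binding protein. CTB-186G2.4 was at 0.979 and 0.855 FPKM in the controls and at 1.87 and 1.69 FPKM in the GAP43 libraries (log2 fold change 0.54, SE 0.22, called), on 27 fragments in all, and ACTN4 was at 255 to 285 FPKM. Exons of the partner cover 0.0% of the exonic bases of CTB-186G2.4, 51.6% of those of RP11-513M16.8 and 51.9% of those of RP4-536B24.2, and in the last cases the reads cannot be told apart.

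Antisense RNAs are cleared in part by the nuclear exosome and cut short by the Integrator complex, and RNA of both strands can form dsRNA that cells edit or sense. Of 26 tested genes of the exosome and its adaptors, 0 were called at an unadjusted p under 0.05, and the median log2 fold change was -0.16, against -0.08 over all protein-coding genes. Both GAP43 libraries lay below both controls in 10 of them (38.5%, against 28.1% of protein-coding genes) and above in 2 (7.69%, against 13.9%). The median gene of this list lay at 11.7 to 12.5 FPKM in a library. Among protein-coding genes of 10 FPKM or more the median was -0.20, with 43.3% below both controls and 7.03% above. The values of the list thus lay near those of coding genes at such levels. EXOSC7 and EXOSC5, core subunits, had log2 fold changes of -0.38 (SE 0.16) and -0.38 (SE 0.18), and ZFC3H1, an adaptor, had 0.30 (SE 0.17). Of 24 genes of Integrator and early termination 0 were called (median -0.07), and both GAP43 libraries lay below both controls in 5 and above in 2 (20.8% and 8.33%). INTS3 had a log2 fold change of 0.34 (SE 0.17), while CPSF3, the cleavage endonuclease of polyadenylation, had -0.34 (SE 0.20), INTS7 -0.29 (SE 0.21) and INTS10 -0.23 (SE 0.16). Of 22 genes of dsRNA editing and sensing 0 were called (median 0.08), with 4 below and 4 above (18.2% each). The log2 fold change of ILF2, a binding protein of dsRNA, was -0.53 (SE 0.27), that of PNPT1, a mitochondrial exoribonuclease, -0.37 (SE 0.20), that of AGO4, an Argonaute protein, 0.32 (SE 0.21) and that of SUPV3L1, a mitochondrial helicase, -0.23 (SE 0.18).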

How the data were processed

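RNA from SW620 cells was measured in 2 libraries with GAP43 plasmids and 2 with control plasmids. Per the labels and methods, the authors enriched poly(A) RNA, made cDNA from random hexamers and sequenced both ends of the fragments, and they deposited a table of FPKM values per gene and library, with gene type, position, strand and length. Tools listed in the submitters' processing notes are Cufflinks 1.1, Cuffdiff and TopHat2 2.0.13, and the build listed is hg19. How fragments were assigned to genes, with which annotation release and with what strand setting, is not given in the sources used here. GENCODE release 29 held 33057 of the 33845 IDs, with the same start for 96.5% of them, so positions are those of GRCh38.

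FPKM times gene length came out as whole fragments within 0.01 for 100% of values above 0. PCR copies cannot be told from separate molecules. Genes averaging 1 FPKM or more (13507) were compared as log2(FPKM + 1) with limma 3.58.1 in R 4.3.3, with eBayes under a trended prior, 2-sided, and Benjamini-Hochberg adjustment over all of them. Log2 fold changes are differences of group means on this scale and understate the change of low genes. Overlaps, promoter motifs and figures were made with Python 3.11.15, pandas 2.3.3 and matplotlib 3.10.9. The test was tried on simulated data.

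Named by rule were the 10 members with the highest mean, the 12 higher and 6 lower members with the smallest p and no overlap of the groups, the HOX cluster members, the 5 highest and 5 lowest ratios to a tested partner, the 3 genes on each side of the threshold, the partners of all these, and up to 4 genes of each list. Members, rules and lists were chosen with earlier results of these data known. Alternatives were other pseudocounts, filters, scalings, a constant prior, voom, a replicate block, other member rules and leaving out each library. Crossed replicate numbers and both group means at 1 FPKM were added after seeing the data. Results for a few partner genes are not reported here.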

Additional observations from a re-analysis of the deposited data

How the results depend on the processing

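Against the 55 higher and 6 lower antisense genes, a fit without the filter on low genes gave 27 and 3 (4.06% higher, against 4.21% of all genes in that fit), voom on recovered fragments 30 and 1 (4.51%, against 2.93%), an equal FPKM sum in each library 70 and 1, and leaving out each library in turn 27 to 188 higher and 1 to 17 lower. The count at an adjusted p under 0.05 was 0 in each of these fits. Higher with an equal FPKM sum were 10.5% of the antisense genes and 4.27% of all genes, against 8.27% and 3.05% with the deposited scaling. Lower were 0.15% and 1.58%, against 0.902% and 2.84%, so all genes moved upward with this scaling as well. The median log2 fold change of the antisense genes was 0.38 with an equal FPKM sum. This set them 0.31 above the median of all genes, against 0.25 with the deposited scaling. The median of the antisense genes was 0.0749 to 0.366 with a library left out, and it stayed above 0 in every alternative. With GAP43 replicate 1 alone against both controls, 286 antisense genes and 4198 of all 13507 genes lay above them. With GAP43 replicate 2 alone these counts were 464 and 4859. With both GAP43 libraries they were 227 and 2309, and fewer libraries make such a separation easier. Among members with at least 2 FPKM, a smaller set, the count with both GAP43 libraries was 117. The 10 higher partners became 6 with the filter at 0.5 FPKM, 16 with an equal FPKM sum, 4 with median-ratio scaling, 5 with a constant prior, 16 with voom, 6 where the overlap covered 50% or more of the antisense gene, and 2 to 59 with a library left out. The 13 lower partners became 4 with an equal FPKM sum, 8 among members with at least 2 FPKM, 8 with that longer overlap, and 0 to 95 with a library left out. By share, 3.18% of partners were higher with an equal FPKM sum and 3.18% with voom, against 2.38% and 2.61% of protein-coding genes. With median-ratio scaling the shares were 0.795% and 0.945%. A constant prior and the 0.5 FPKM filter gave 0.994% and 1.19% of partners, where protein-coding genes stayed near 1.23% (1.19% and 1.26%). Lower with an equal FPKM sum were 0.795% of partners and 1.63% of protein-coding genes. The longer overlap left 306 tested partners. The median of the partners, -0.04, turned to 0.0706 with an equal FPKM sum and to 0.0045 with voom, and was -0.0745 with median-ratio scaling, -0.0179 with members of at least 2 FPKM, and -0.0656 to -0.0205 with a library left out. The 409 pairs with the larger log2 fold change in the antisense gene became 197 with members of at least 2 FPKM and 252 with the longer overlap, both with fewer pairs. The cause of the other changes was not tested. With both group means at 1 FPKM or more no count moved by over 1.5 times.

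The differences between the replicates of each group had a correlation between groups of -0.16 over all genes and -0.04 over the antisense genes. Each group gives a single difference per gene, so these values cannot settle whether same-numbered libraries were paired. With the replicate number as a block, 76 antisense genes were higher (11.4%, against 4.85% of all genes). In that fit 8 partners were lower (1.59%, against 2.72% of protein-coding genes). An adjusted p under 0.05 was passed there by 5 antisense genes and 152 of all genes. The 5 were RP5-908M14.5, HOTAIRM1, RP5-881L22.5, RP11-403P17.6 and RP11-401P9.6. The prior of that fit had infinite weight, so each gene's own scatter, wide in HOTAIRM1, did not enter these p-values. With crossed numbers, chosen after seeing the data, 86 antisense genes were higher (12.9%, against 4.95% of all genes). The same fit had 22 partners higher (4.37%, against 2.29% of protein-coding genes). No named antisense gene changed sign past the threshold in any alternative, and of the 20 that were called, 13 lost the call with voom and 12 without control replicate 2. The antisense genes with under 100 fragments in all were higher in 9.57%, against 7.59% of the others.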
